A study of Mus musculus with 6 samples.

Results

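The genes that lie on either side of Tet1 on mouse chromosome 10 were examined in hippocampal RNA from Tet1-deficient and wild-type mice that had each had an evoked seizure. The set was given as a list of 53 gene symbols, and all 53 were found among the 23361 symbols of the deposited expression table. They span 8.96 Mb of mm10, from 59323296 to 68278740 on chromosome 10, with 34 on the centromeric side of Tet1 and 19 on the telomeric side. Tet1 itself occupies 62804570 to 62908996 on the minus strand. The list followed position and was drawn up with earlier results of these data known, so the members are described beside all other genes and no test is made over the list.

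Whole hippocampi of 3 mice with the homozygous Tet1Δe4-/- genotype, a deletion named for exon 4, and of 3 Tet1+/+ mice were profiled by RNA sequencing, 1 library per animal. Every animal, wild-type ones included, was given electroconvulsive shock by ear clamps (18 mA, 100 Hz, pulses of 0.2 ms for 1.15 seconds) and the tissue was taken 1.5 to 2 hours later. The labels give neither strain background, age nor the source of the cells in which Tet1 was targeted, and unshocked animals were not analysed here. Replicate numbers only name libraries.

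Tet1 encodes a dioxygenase that oxidises 5-methylcytosine, a step in the removal of DNA methylation from CG dinucleotides. Genes close to a targeted locus are of interest in any knockout line for 2 reasons given as background. The chromosome segment around the mutation is inherited with it and can carry variants of the strain in which the targeting was done, and a deletion or an inserted cassette can act on transcription nearby. None of the deposited values shows the sequence of the segment, so linked variants themselves were not measured.

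The expression unit is FPKM, fragments scaled to transcript length and to the mapped total of the library, which can be compared between genes because it is divided by length. Read depth cannot be read from it and is unknown. A gene was tested when its mean over the 6 libraries reached 1 FPKM, which left 12533 genes. Differences are Tet1-deficient minus wild-type on the scale of log2(FPKM + 1), fitted with limma (moderated, two-sided), and p-values were adjusted over all 12533 genes by Benjamini-Hochberg, with calls made under 0.05. The added 1 makes a difference smaller than the true one for genes near 1 FPKM.

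Tet1-deficient replicate 1 and wild-type replicate 1 stood apart from the other 4 libraries. They scored 27.9 and 26.7 on the first principal component of the tested genes, which held 53.3% of the variance, while the other 4 scored between -15.5 and -10.5. By Pearson correlation across genes, Tet1-deficient replicate 1 was closest to wild-type replicate 1 (0.983). Wild-type replicate 1 also had 63.5 FPKM of Xist and 0.0381 FPKM of the Y-linked gene Ddx3y, where the other 5 libraries had 0.0389 to 0.202 and 16.7 to 35.2 FPKM, so the wild-type group held 1 library with a female pattern and the Tet1-deficient group none. Slc17a7, the vesicular glutamate transporter of excitatory neurons, ran from 593 to 650.2 FPKM in Tet1-deficient and from 573 to 655 FPKM in wild-type hippocampus. Some cell type markers moved with the library split. The summed dentate granule cell markers (Prox1, C1ql2 and Dsp) were 39.2, 84.2 and 62.7 FPKM in Tet1-deficient and 45.3, 68.02 and 67.01 FPKM in wild-type libraries, lowest in replicate 1 of each. Neurod6, the astrocyte channel Aqp4 and the microglial receptor P2ry12 were higher in both replicate 1 libraries than in the other 4. Markers of the same cell types went the other way. Slc17a7, the astrocyte gene Aldh1l1 and the microglial gene Tmem119 were lower in both replicate 1 libraries than in the other 4. The markers of each of these cell types therefore did not move together. The summed choroid plexus markers ran from 8.995 to 193 FPKM in Tet1-deficient and from 7.18 to 301 FPKM in wild-type libraries. The parts that sex, choroid plexus and the library split play in the values of single members were not tested. The fit without the 2 libraries, given below, leaves out the library with the female pattern together with the split. It keeps Tet1-deficient replicate 2 and wild-type replicate 3, the libraries highest in choroid plexus markers. That fit therefore cannot tell these parts from each other.

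Tet1 transcript was scarce, with 0.7396, 0.685 and 0.638 FPKM in Tet1-deficient hippocampus and 0.977, 0.718 and 0.897 FPKM in wild-type hippocampus. Tet1-deficient replicate 1 lay above wild-type replicate 2, so the groups overlapped. The means were 0.688 ± 0.0507 FPKM in Tet1-deficient and 0.864 ± 0.132 FPKM in wild-type libraries (SD, n = 3 each). The exact permutation p, two-sided, was 0.2, and 3 libraries against 3 cannot go below 0.1. A value over all exons does not check the loss of a single exon. In whole tissue, fewer cells that express a gene and less RNA per cell cannot be told apart.

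The members ranged widely in level. Of these, 3 members averaged at least 100 FPKM, 18 averaged 10 to 100 FPKM, and 19 averaged 1 to 10 FPKM. The remaining 13 were under 1 FPKM and were not tested, 12 of them above 0 and 1, Prf1, listed at 0 in every library. The plot of expression in chromosomal order shows high and low genes side by side.

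**Figure D1:**
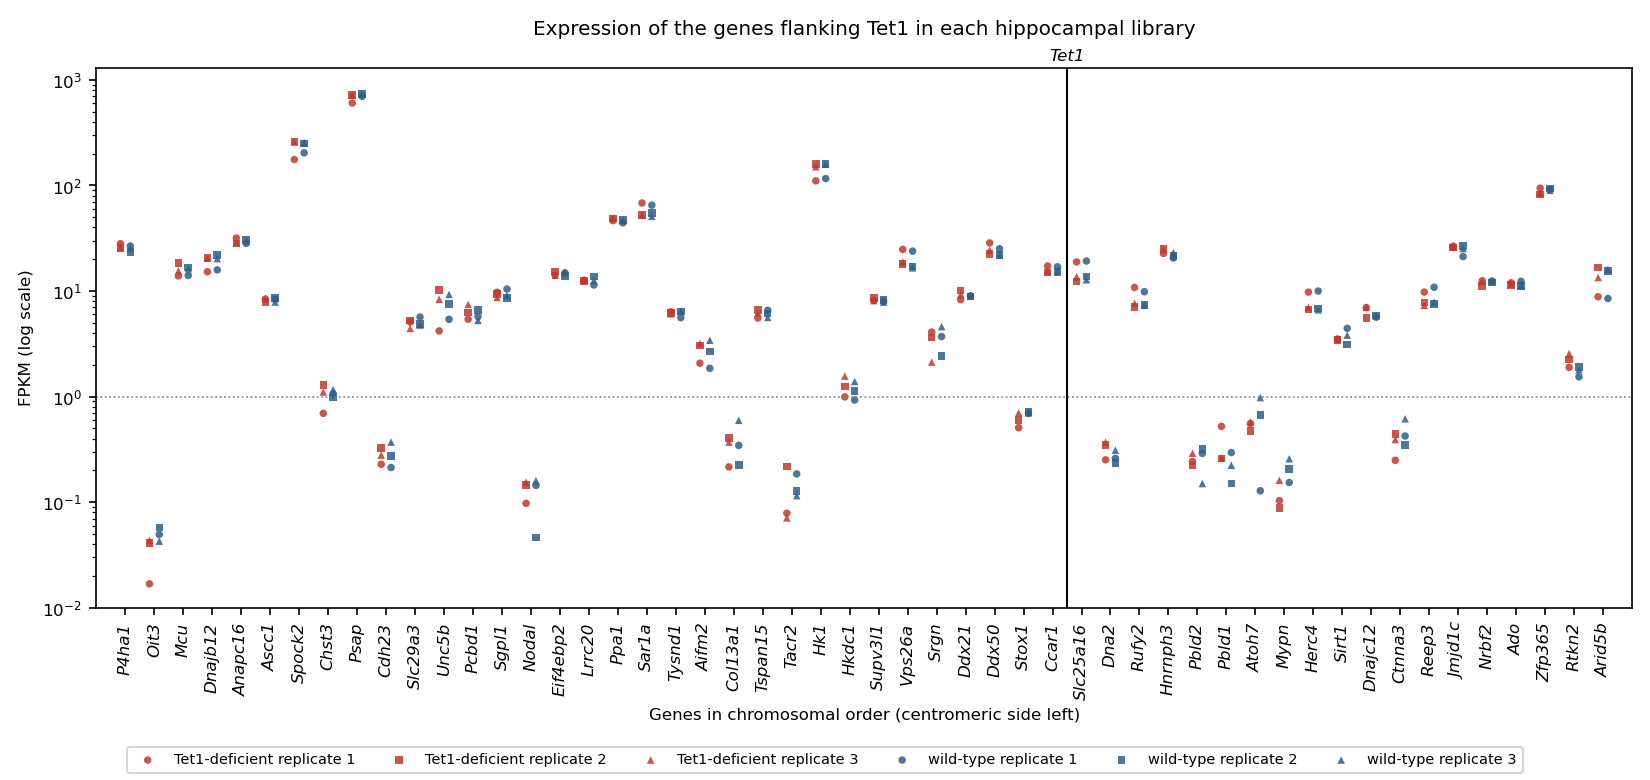
FPKM of the 52 members above 0, on a log scale, in chromosomal order from the centromeric side, with each Tet1-deficient library in red left of each wild-type library in blue and a symbol per replicate. The vertical line marks Tet1 and the dotted line 1 FPKM. Psap, Spock2 and Hk1 lie above 100 FPKM in every library, and the red and blue points overlap at each gene.

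The promoters of 6 members are shown because they frame the comparison of levels and position: the nearest gene on each side of Tet1 (Ccar1 and Slc25a16), a pair whose starts face each other (Hnrnph3 and Pbld2), the most abundant member (Psap) and the one listed at 0 (Prf1). Each is the RefSeq window on GRCm38.p6 from 250 bases before to 50 bases after the start, written 5′ to 3′ on the gene's own strand, with CG dinucleotides in capitals. The windows are Ccar1 at chr10:62792319-62792618 on the minus strand with 30 CG, Slc25a16 at chr10:62920383-62920682 on the plus strand with 24 CG, Hnrnph3 at chr10:63023800-63024099 on the minus strand with 32 CG. Next are Pbld2 at chr10:63024262-63024561 on the plus strand with 13 CG, Psap at chr10:60277378-60277677 on the plus strand with 23 CG and Prf1 at chr10:61297586-61297885 on the plus strand with 5 CG.
Ccar1: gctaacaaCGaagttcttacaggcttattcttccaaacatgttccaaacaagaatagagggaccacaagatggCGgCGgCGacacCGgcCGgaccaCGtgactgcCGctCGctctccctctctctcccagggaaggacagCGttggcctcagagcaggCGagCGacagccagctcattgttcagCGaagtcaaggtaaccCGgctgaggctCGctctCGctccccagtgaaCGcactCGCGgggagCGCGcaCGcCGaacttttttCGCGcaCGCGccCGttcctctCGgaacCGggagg
Slc25a16: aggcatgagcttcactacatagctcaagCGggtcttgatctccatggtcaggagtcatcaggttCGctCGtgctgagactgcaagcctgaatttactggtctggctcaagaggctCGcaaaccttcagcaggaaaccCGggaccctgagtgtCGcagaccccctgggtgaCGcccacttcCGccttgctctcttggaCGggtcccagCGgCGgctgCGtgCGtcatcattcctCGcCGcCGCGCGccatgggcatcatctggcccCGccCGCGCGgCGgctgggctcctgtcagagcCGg
Hnrnph3: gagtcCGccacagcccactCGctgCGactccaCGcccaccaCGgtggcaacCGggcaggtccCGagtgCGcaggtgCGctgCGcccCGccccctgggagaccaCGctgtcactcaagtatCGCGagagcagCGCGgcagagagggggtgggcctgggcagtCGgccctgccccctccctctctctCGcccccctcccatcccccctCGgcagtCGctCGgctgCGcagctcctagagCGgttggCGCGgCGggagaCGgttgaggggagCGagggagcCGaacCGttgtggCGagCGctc
Pbld2: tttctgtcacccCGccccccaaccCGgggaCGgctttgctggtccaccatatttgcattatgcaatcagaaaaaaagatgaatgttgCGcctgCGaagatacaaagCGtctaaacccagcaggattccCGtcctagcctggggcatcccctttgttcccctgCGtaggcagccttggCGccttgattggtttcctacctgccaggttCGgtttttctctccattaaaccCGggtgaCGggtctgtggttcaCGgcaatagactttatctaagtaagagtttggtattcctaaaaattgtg
Psap: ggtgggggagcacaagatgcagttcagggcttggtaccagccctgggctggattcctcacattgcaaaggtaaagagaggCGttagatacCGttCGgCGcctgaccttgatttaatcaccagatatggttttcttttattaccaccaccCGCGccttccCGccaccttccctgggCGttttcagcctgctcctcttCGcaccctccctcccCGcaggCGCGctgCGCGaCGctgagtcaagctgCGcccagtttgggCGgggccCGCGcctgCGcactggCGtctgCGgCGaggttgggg
Prf1: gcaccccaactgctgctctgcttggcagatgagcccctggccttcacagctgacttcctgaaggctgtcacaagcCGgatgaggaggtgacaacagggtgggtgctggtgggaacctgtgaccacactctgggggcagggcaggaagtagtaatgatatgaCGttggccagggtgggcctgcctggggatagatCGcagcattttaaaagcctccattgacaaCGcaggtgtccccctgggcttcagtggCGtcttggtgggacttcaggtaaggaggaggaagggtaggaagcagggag

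CG dinucleotides are the substrate sites of Tet1 once methylated, and their number differed widely between these windows. RefSeq windows were found for 49 of the 53 members, all but Oit3, Rtkn2, Dnajc12 and Reep3. A gene can have several windows (32851 for 27025 genes), and for each member the one nearest its outermost GENCODE start was taken. Which start is used in hippocampus was not measured. The median member window held 23 CG, against 7 over all 32851 windows of the table. At least 10 CG were present in 31 of 37 tested members with a window and in 6 of 12 members under 1 FPKM. For all genes of the table with a window, the first listed window of each gene was used. Of these genes, 84.6% of those of at least 1 FPKM and 23.4% of those under 1 FPKM reached 10 CG. The correlation over the table given next uses the same windows, so members and table genes are not matched in the choice of window. Across the 49 members, CG number and mean FPKM had a Spearman correlation of 0.32, and of 0.65 across 16344 genes of the table, given as descriptions because windows share base composition with their neighbours. Hk1, at an average of 142 FPKM, had 1 CG in the window taken, which need not be that of the start in use. Ctnna3, with 39 CG, and Dna2, with 35 CG, averaged 0.412 and 0.296 FPKM. The RefSeq start differs from the outermost GENCODE start by 5386 bases in Aifm2, 30963 bases in Jmjd1c and 42669 bases in Sirt1, and by 368 and 197 bases in Hnrnph3 and Pbld2.

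**Figure D2:**
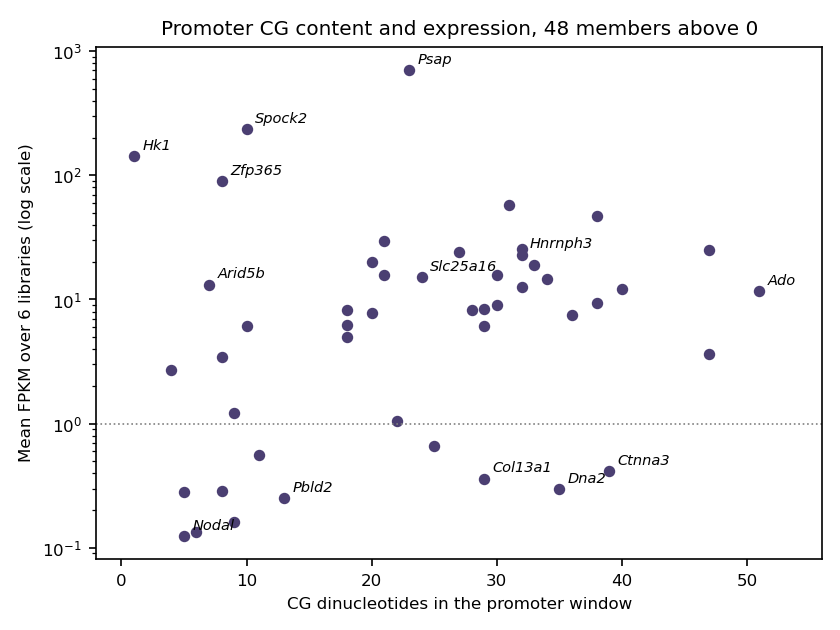
Number of CG dinucleotides in the 300-base promoter window (x axis) and mean FPKM over the 6 libraries on a log scale (y axis) for the 48 members with a window and a level above 0. Most members with 18 or more CG lie between 1 and 100 FPKM, with Psap above 100 FPKM and Ctnna3, Dna2, Col13a1 and Stox1 below 1 FPKM, and Hk1 is at the far left with 1 CG and 142 FPKM.

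The windows were searched on both strands for TGACGTCA, GCGTGGGCG and TATAAA. Neither TGACGTCA, the full cAMP response element, nor GCGTGGGCG, a site of Egr proteins, was found in any of the 49 windows, and they are rare in all windows (1.79% and 0.612%). TATAAA was found in 8 member windows (16.3%), among them those of P4ha1, Arid5b and Zfp365, against 13.6% of all windows. No match says only that these letters are not in these 300 bases.

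No tested member differed between the genotypes by the adjusted test. With limma 0 of 40 had an adjusted p under 0.05, where 4 of all 12533 genes did (0.0319%), and 0 of 40 had an unadjusted p under 0.05, against 1.36% of all genes. In no member were the 3 Tet1-deficient libraries all above or all below the 3 wild-type libraries, a separation that 4.13% of all tested genes showed. The median log2 difference of the members was 0.0035, with 24 above 0 and 16 below, and that of all tested genes 0.0055. The size of the difference was under 0.1 in 33 of 40 members and in 74.9% of all genes. Ratios of the means ran from 0.918 (Srgn) to 1.27 (Rtkn2), and 36 of 40 lay from 0.9 to 1.1.

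The intervals show how large a difference these libraries leave room for. The 95% confidence interval of limma lay within 1.5-fold in both directions for 37 of 40 members (92.5%), against 86.2% of all tested genes, and within 2-fold for all 40, against 98.1% of all tested genes. The members that reached beyond 1.5-fold were Unc5b, Srgn and Arid5b. With a pseudocount of 0.1 FPKM in place of 1, which shrinks low genes less, 33 intervals lay within 1.5-fold, against 76.3% of all genes. With 1 library left out the count ran from 31 to 35, against 72% to 83.3% of all genes. A missed threshold does not show that a gene was equal in both genotypes.

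**Figure D3:**
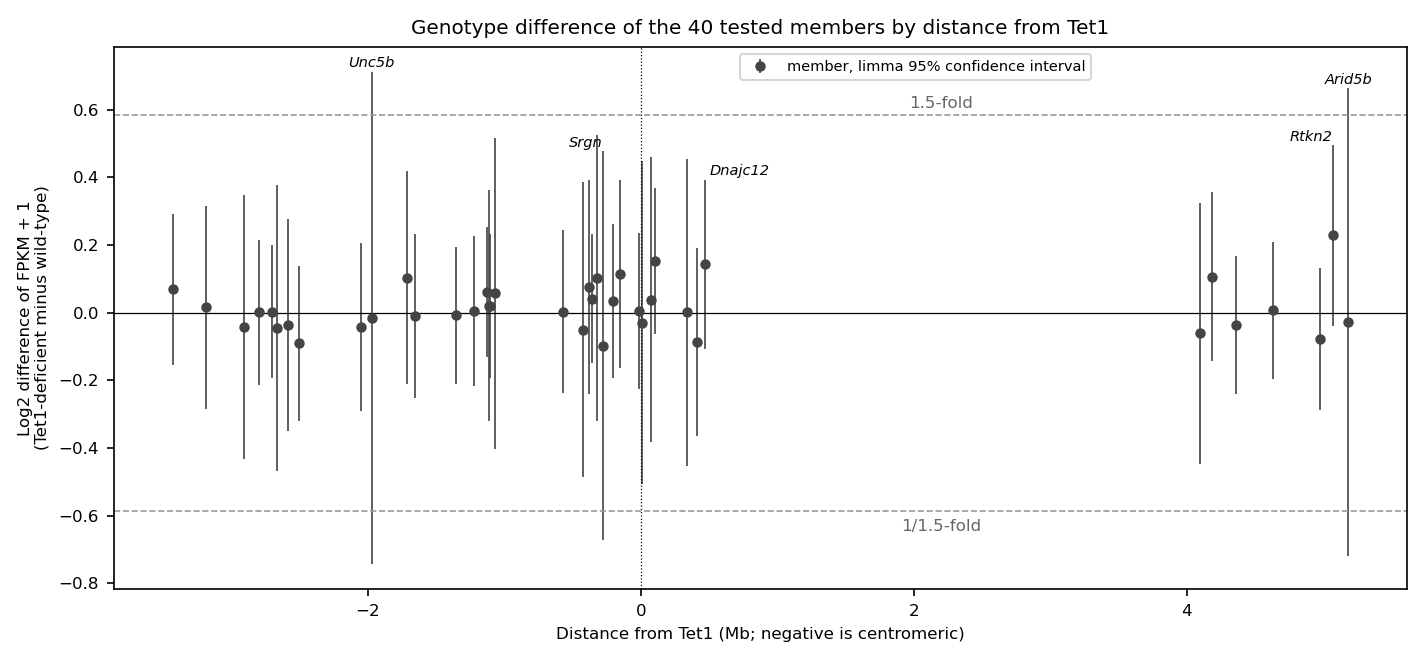
Log2 difference of FPKM + 1, Tet1-deficient minus wild-type, for the 40 tested members (y axis) against distance from the edge of Tet1 in Mb, centromeric side negative (x axis). Points are estimates and bars limma's 95% confidence intervals from 3 libraries against 3. Every interval includes 0, and Unc5b, Srgn and Arid5b pass the dashed lines at 1.5-fold.

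Members were also described by distance from Tet1. The 14 tested members within 0.5 Mb had a median difference of 0.036, with 10 above 0 and 4 below, and 0 with an unadjusted p under 0.05 (1.36% of all genes). The 10 members from 0.5 to 2 Mb had a median of 0.012, and the 16 beyond 2 Mb one of -0.033, with no test of the order. By side, the median was 0.0038 for 27 centromeric and 0.0013 for 13 telomeric members. Of the 63 other genes of the table within 10 Mb of Tet1, 39 were tested. Their median was 0.019, 25 were above 0 and 14 below, and 0 passed an unadjusted p of 0.05. Groups were separate in 2 of the 39, Tbata and Lrrtm3, near the 4.13% of all tested genes. Lrrtm3, a synaptic adhesion gene nested on the opposite strand inside the member Ctnna3, had 3.64, 3.67 and 3.89 FPKM in Tet1-deficient hippocampus, against 4.55, 4.07 and 4.06 FPKM in wild-type hippocampus (log2 difference -0.14, SE 0.087, limma, adjusted p = 1.00). Tbata had 3.97, 3.86 and 3.93 FPKM in Tet1-deficient and 4.60, 4.96 and 4.14 FPKM in wild-type libraries (log2 difference -0.18). The next smallest p-values among these neighbours were those of Ddit4, an inducible inhibitor of mTORC1 signalling (0.16, SE 0.12), Ccdc138 (0.115) and Sowahc (-0.10), with overlapping groups.

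On the centromeric side the nearest gene is Ccar1, a nuclear coactivator of cell cycle and apoptosis genes, which starts 12.3 kb from the end of Tet1 and runs away from it. Ccar1 had 17.3, 14.98 and 15.3 FPKM in Tet1-deficient and 16.99, 15.4 and 15.1 FPKM in wild-type libraries. Its means were level (15.9 ± 1.23 FPKM in Tet1-deficient and 15.8 ± 1.03 FPKM in wild-type libraries, SD, n = 3 each), and replicate 1 was the highest in each genotype. The log2 difference was 0.0038 with an interval from -0.23 to 0.23, which is 0.854 to 1.18 times the wild-type level on the FPKM + 1 scale.

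Next among the tested members come Ddx50 and Ddx21, a tandem pair of nucleolar DEAD-box RNA helicases that act on ribosomal RNA. Ddx50 had 28.6, 22.4 and 24.4 FPKM in Tet1-deficient hippocampus, against 25.2, 22.01 and 22.1 FPKM in wild-type hippocampus. Ddx21 was less abundant, with 8.28, 10.1 and 9.298 FPKM in Tet1-deficient and 8.998, 8.84 and 9.01 FPKM in wild-type libraries. The log2 differences were 0.11 (SE 0.12) and 0.034 (SE 0.095). The groups overlapped in both, and the highest Ddx50 values were those of replicate 1 in each genotype.

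Srgn, the proteoglycan core of secretory granules in blood and immune cells, varied more than most. It had 4.09, 3.64 and 2.12 FPKM in Tet1-deficient and 3.71, 2.42 and 4.603 FPKM in wild-type hippocampus, with the lowest and the highest value in different genotypes and full overlap. The summed endothelial markers (Cldn5, Flt1, Pecam1 and Tek) were 6.87, 17.1 and 8.05 FPKM in Tet1-deficient and 11.7, 9.64 and 20 FPKM in wild-type libraries, and the summed microglial markers 55.7 to 62.04 FPKM in Tet1-deficient and 57.4 to 65.1 FPKM in wild-type libraries. Their part in the Srgn values was not tested.

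Vps26a, a subunit of the retromer that returns cargo from endosomes, had 24.8, 18.1 and 18.8 FPKM in Tet1-deficient and 23.9, 17.1 and 16.6 FPKM in wild-type libraries. Within each genotype replicate 1 was the highest by a clear margin. Supv3l1, a mitochondrial RNA helicase, was the steadiest member, with 8.15, 8.598 and 8.12 FPKM in Tet1-deficient and 7.96, 8.25 and 7.86 FPKM in wild-type hippocampus. Its log2 difference was 0.042 with an interval from -0.15 to 0.23.

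The hexokinase pair follows. Hk1, the main hexokinase of brain, which commits glucose to glycolysis, had 111, 159 and 150.5 FPKM in Tet1-deficient libraries, against 116, 159 and 159 FPKM in wild-type libraries. Hkdc1, its neighbour with a hexokinase domain, had 0.994, 1.253 and 1.57 FPKM in Tet1-deficient libraries, against 0.928, 1.14 and 1.39 FPKM in wild-type libraries. Averages over the 6 libraries were 142 and 1.21 FPKM, and in both genes replicate 1 was the lowest of each genotype. Hk1os is annotated on the strand opposite Hk1, and without strand its reads cannot be told from those of Hk1.

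On the telomeric side the nearest gene is Slc25a16, a mitochondrial carrier, which starts 11.6 kb from the outermost annotated start of Tet1 and runs away from it. The nearest RefSeq start of Tet1 lies 21672 bases from that annotated start, inside the gene. Slc25a16 had 18.9, 12.3 and 13.7 FPKM in Tet1-deficient and 19.2, 13.8 and 12.8 FPKM in wild-type hippocampus. Replicate 1 stood out upward in both genotypes, and the group means were 14.9 ± 3.46 FPKM in Tet1-deficient and 15.3 ± 3.48 FPKM in wild-type libraries, SD, n = 3 each. The log2 difference was -0.030 (SE 0.20), and -0.031 without the 2 libraries that stand apart. Dna2, a nuclease and helicase of DNA replication and repair that lies next to Slc25a16, was under the level for testing, with 0.252, 0.349 and 0.3698 FPKM in Tet1-deficient and 0.261, 0.235 and 0.311 FPKM in wild-type libraries.

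Rufy2, a RUN and FYVE domain protein of endosomal membranes, had 10.8, 7.07 and 7.66 FPKM in Tet1-deficient and 9.86, 7.37 and 7.39 FPKM in wild-type hippocampus, again with replicate 1 on top in each genotype. Hnrnph3, a splicing factor of the heterogeneous nuclear ribonucleoprotein family whose end overlaps that of Rufy2 on the other strand, had 22.7, 25.3 and 24.6 FPKM in Tet1-deficient and 20.6, 21.4 and 23.1 FPKM in wild-type hippocampus. A single pair of libraries overlapped, Tet1-deficient replicate 1 below wild-type replicate 3. Its log2 difference was 0.15 (SE 0.091, limma, adjusted p = 1.00). In the 4 libraries without the 2 that stand apart the value was 0.16 (limma, adjusted p = 0.999).

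Hnrnph3 and Pbld2 start back to back, 98 bases apart by their outermost GENCODE starts, yet differed 90.7-fold in level. Their RefSeq starts lie 368 and 197 bases from those starts. Pbld2 had 0.243, 0.223 and 0.291 FPKM in Tet1-deficient and 0.2899, 0.319 and 0.1503 FPKM in wild-type libraries. Pbld1, the adjacent copy of this phenazine biosynthesis-like gene, had 0.523, 0.258 and 0.263 FPKM in Tet1-deficient libraries, against 0.296, 0.151 and 0.224 FPKM in wild-type libraries. The Pbld1 transcript matches Pbld2 at 92.5% identity over 1204 nucleotides, so reads can be shared and both values are uncertain. Other pairs whose outermost annotated starts lie within 1 kb on opposite strands were closer in level: Anapc16 and Ascc1 (29.6 and 8.25 FPKM on average), Jmjd1c and Reep3 (25.3 and 8.53 FPKM), and Dnajc12 and Sirt1 (6.15 and 3.64 FPKM), although the RefSeq starts of Jmjd1c and Sirt1 lie elsewhere.

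Herc4, a ubiquitin ligase of the HECT class, had 9.77, 6.67 and 6.99 FPKM in Tet1-deficient and 10.004, 6.83 and 6.64 FPKM in wild-type hippocampus. Sirt1, the NAD-dependent deacetylase of histones and transcription factors, had 3.51, 3.44 and 3.4996 FPKM in Tet1-deficient and 4.44, 3.13 and 3.82 FPKM in wild-type hippocampus. The Sirt1 values of the Tet1-deficient libraries fell inside the wild-type range, and its log2 difference was -0.087 (SE 0.12), against 0.003 without the 2 libraries. Dnajc12, a co-chaperone of the aromatic amino acid hydroxylases, had 6.98, 5.59 and 7.003 FPKM in Tet1-deficient and 5.66, 5.88 and 5.82 FPKM in wild-type hippocampus. Of the Tet1-deficient libraries 2 were above and 1 below every wild-type library. The log2 difference of Dnajc12 was 0.14 (SE 0.11, limma, adjusted p = 1.00), and 0.084 in the 4 libraries.

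The member with the smallest p lay far from Tet1. Rtkn2, whose gene begins 5.07 Mb away, had 1.89, 2.24 and 2.55 FPKM in Tet1-deficient and 1.54, 1.91 and 1.795 FPKM in wild-type hippocampus. Tet1-deficient replicate 1 fell just below wild-type replicate 2, and the other 2 Tet1-deficient libraries were above all wild-type ones. The log2 difference was 0.23 (SE 0.11, interval -0.038 to 0.50), with an adjusted p in limma of 1.00. Without the 2 libraries that stand apart it was 0.25 (limma, adjusted p = 0.999).

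Also among the 10 smallest p-values were Jmjd1c, of the Jumonji family of histone demethylases, and Zfp365, a zinc finger gene of neurons. Jmjd1c had 26.6, 25.7 and 26.1 FPKM in Tet1-deficient and 21.2, 26.6 and 25.2 FPKM in wild-type libraries, where wild-type replicate 1 was the single low value. Its log2 difference of 0.11 became 0.002 without the 2 libraries. Zfp365 had 94.3, 82.2 and 85.001 FPKM in Tet1-deficient and 91.9, 93.9 and 89.9 FPKM in wild-type libraries, with 2 of 3 Tet1-deficient libraries below all wild-type ones and the other above them. Its log2 difference was -0.077 (SE 0.089), and -0.13 in the 4 libraries (limma, adjusted p = 0.999).

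Metabolic and lysosomal genes on the centromeric side had overlapping groups. Psap, the precursor of the saposins that activate sphingolipid breakdown in lysosomes, had 604, 723 and 716 FPKM in Tet1-deficient and 697, 735 and 737 FPKM in wild-type hippocampus. Tet1-deficient replicate 1 was the lowest library and the others lay close together. Ppa1, the cytosolic pyrophosphatase, had 46.4, 48.6 and 48.9 FPKM in Tet1-deficient and 44.3, 47.1 and 46.5 FPKM in wild-type libraries. Pcbd1, which recycles the tetrahydrobiopterin cofactor, had 5.41, 6.29 and 7.47 FPKM in Tet1-deficient and 5.73, 6.58 and 5.26 FPKM in wild-type libraries. Log2 differences were -0.091, 0.061 and 0.10 (SE 0.097, 0.081 and 0.13), and none passed the adjusted test. Single libraries decided some of these values. Psap was at -0.0072 without Tet1-deficient replicate 1, and Pcbd1 at 0.20 without Tet1-deficient replicate 1 and at 6.35e-06 without Tet1-deficient replicate 3.

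Also abundant were Spock2, an extracellular proteoglycan of neurons, and Sar1a, the GTPase that starts COPII vesicles at the endoplasmic reticulum. Spock2 had 176, 261 and 258 FPKM in Tet1-deficient and 204, 250.4 and 255 FPKM in wild-type hippocampus. Sar1a had 68.2, 52.7 and 52.7 FPKM in Tet1-deficient and 65.1, 54.7 and 50.9 FPKM in wild-type hippocampus. Replicate 1 was the lowest for Spock2 and the highest for Sar1a in both genotypes.

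The other 16 tested members lay within a narrow range of differences, from -0.061 (Reep3) to 0.069 (P4ha1), with 9 above 0 and 7 below and overlapping groups in each. P4ha1, the catalytic subunit of collagen prolyl hydroxylase, averaged 26.4 ± 1.48 FPKM in Tet1-deficient and 25.1 ± 1.69 FPKM in wild-type libraries (SD, n = 3 each). Mcu, the pore of the mitochondrial calcium uniporter, averaged 15.9 ± 2.27 FPKM in Tet1-deficient and 15.7 ± 1.42 FPKM in wild-type libraries (SD, n = 3 each). Sgpl1, which cleaves sphingosine phosphate, averaged 9.28 ± 0.541 FPKM in Tet1-deficient and 9.36 ± 0.973 FPKM in wild-type libraries (SD, n = 3 each), and Slc29a3, a lysosomal nucleoside transporter, 4.92 ± 0.436 FPKM in Tet1-deficient and 5.096 ± 0.5003 FPKM in wild-type libraries (SD, n = 3 each). The remainder are Dnajb12, Anapc16, Ascc1, Chst3, Eif4ebp2, Lrrc20, Tysnd1, Aifm2, Tspan15, Reep3, Nrbf2 and Ado. At least 50% of the longest Nrbf2 transcript matches Gm6740 at 95% identity or more, so the Nrbf2 value is uncertain.

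Grouped by function, 0 members had an adjusted p under 0.05 in limma. All 6 tested genes of RNA and DNA processing had a difference above 0 (median 0.038, from 0.0032 to 0.15), where 6632 of all 12533 genes did. All 3 of lysosome and sphingolipids had one below 0 (median -0.042). Without the 2 libraries that stand apart these signs did not hold throughout, with Ccar1 at -0.006, Ascc1 at -0.003, Sgpl1 at 0.033 and Slc29a3 at 0.002. Of 9 mitochondrial, peroxisomal and metabolic genes 7 were above 0 and 2 below (median 0.019), of 8 chaperone, secretory and traffic genes 5 and 3 (median 0.029), and of 4 chromatin and transcription genes 1 and 3 (median -0.053). Of 4 tested adhesion, matrix and guidance genes 1 was above and 3 below 0 (median -0.027). Ubiquitin ligase and translation genes (3 tested) had a median of 0.001. Srgn was the 1 tested gene of secreted and immune-cell products and receptors (-0.097), and the 2 tested of the remaining genes, Rtkn2 and Lrrc20, had a median of 0.117. In each of these groups 0 members had an unadjusted p under 0.05.

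Members under 1 FPKM include genes known from other tissues: Prf1, the perforin of cytotoxic lymphocytes, Atoh7, a factor of retinal ganglion cells, Mypn, a sarcomere protein, Cdh23, a cadherin of hair cell tip links, Nodal, a morphogen, and Tacr2, a tachykinin receptor. Their averages over the 6 libraries ran from 0 (Prf1) through 0.0419 (Oit3) to 0.655 FPKM (Stox1). The 13 genes are Oit3, Cdh23, Prf1, Nodal, Col13a1, Tacr2, Stox1, Dna2, Pbld2, Pbld1, Atoh7, Mypn and Ctnna3. The groups overlapped in each of the 12 above 0. With no filter on level, Mypn alone had an unadjusted limma p under 0.05 (adjusted p = 1.00, log2 difference -0.11), where 2.84% of all genes above 0 did. It had 0.104, 0.0879 and 0.161 FPKM in Tet1-deficient and 0.154, 0.205 and 0.258 FPKM in wild-type libraries.

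In 34 of 40 tested members the difference between genotypes was smaller than the SD within them, as in 86.3% of all tested genes. Within the 40 tested members, a first principal component held 75.4% of the variance and scored 1.37 and 1.17 for Tet1-deficient and wild-type replicate 1, against -0.82 to -0.52 for the other 4. In 11 members both replicate 1 libraries lay above the other 4 (27.5%, against 28.5% of all tested genes), and in 10 both lay below (25.0%, against 35.0%). The first share was near that of all genes and the second was below it. The pattern was found in members on both sides of Tet1.

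**Figure D4:**
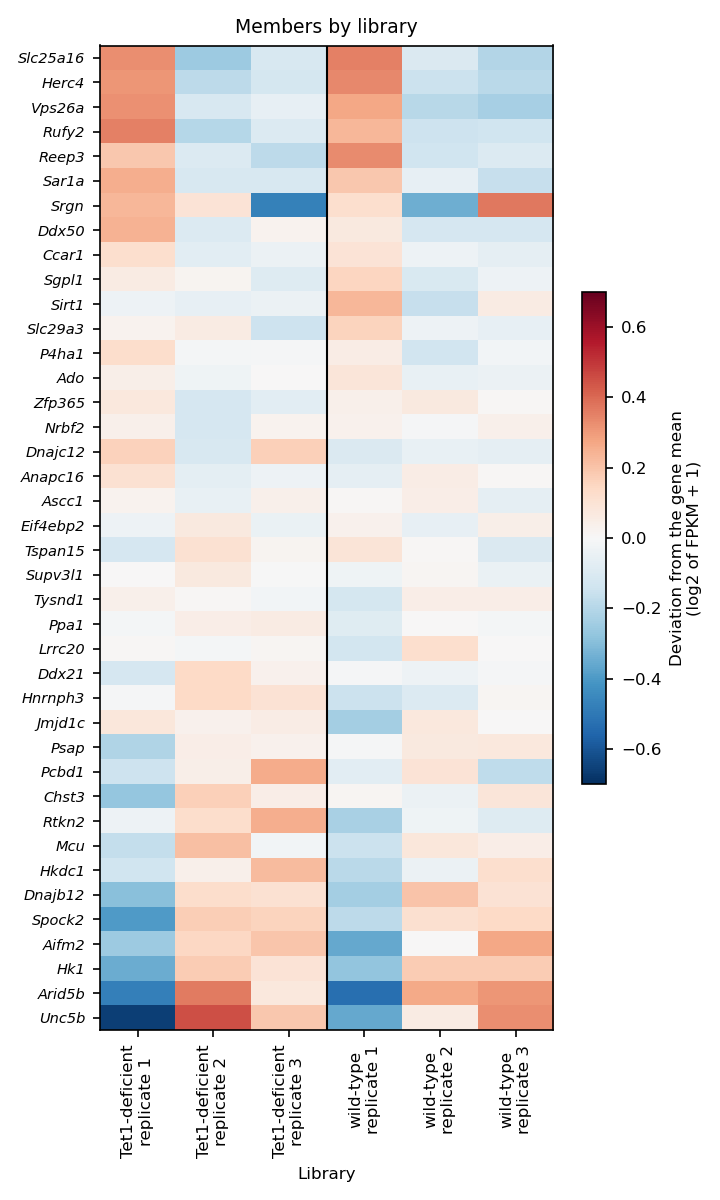
Deviation of each library from the gene's mean over 6 libraries, on the scale of log2(FPKM + 1), for the 40 tested members (rows) in the Tet1-deficient (left of the line) and wild-type libraries (right). Rows are ordered by the mean of the 2 replicate 1 libraries minus the mean of the other 4, from Slc25a16 (0.51) to Unc5b (-0.765). The first column of each genotype is red at the top and blue at the bottom, and the other columns show the reverse.

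The members above in both replicate 1 libraries were Slc25a16, Herc4, Vps26a, Rufy2, Reep3, Sar1a, Ddx50, Ccar1, Sgpl1, P4ha1 and Ado. Slc25a16 averaged 19.1 FPKM in these 2 libraries and 13.1 FPKM in the other 4, and Herc4 9.89 and 6.78 FPKM. The 10 members below were Unc5b, Arid5b, Hk1, Aifm2, Spock2, Dnajb12, Hkdc1, Mcu, Psap and Ppa1. Unc5b, a netrin receptor of axons and vessels, had 4.19, 10.2 and 8.35 FPKM in Tet1-deficient and 5.3998, 7.53 and 9.28 FPKM in wild-type hippocampus. Arid5b, a DNA-binding factor with an AT-rich interaction domain, had 8.83, 16.7 and 13.4 FPKM in Tet1-deficient and 8.501, 15.5 and 16.02 FPKM in wild-type hippocampus. These 2 genes and Srgn had the largest SD within groups (0.48, 0.45 and 0.37 on the log2 scale), where the median member had 0.12 and the median tested gene 0.16.

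Transcript base composition moved with this pattern. The longest annotated transcripts of the 11 members that were high in both replicate 1 libraries had a median GC content of 43.4%, those of the 10 low ones 54.5%, and those of the 19 others 48.4%. All tested genes of the high and low kind had medians of 43.8% and 54.9%. The Spearman correlation of GC content with the library difference was -0.67 across the 40 members and -0.73 across 11787 tested genes, as a description of these libraries. Ppa1 and Arid5b were low in both at a GC content of 42.8% and 47.4%, and Tysnd1, with the highest content (65.2%), showed little of the pattern. What part base composition or the making of the libraries plays was not tested.

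**Figure D5:**
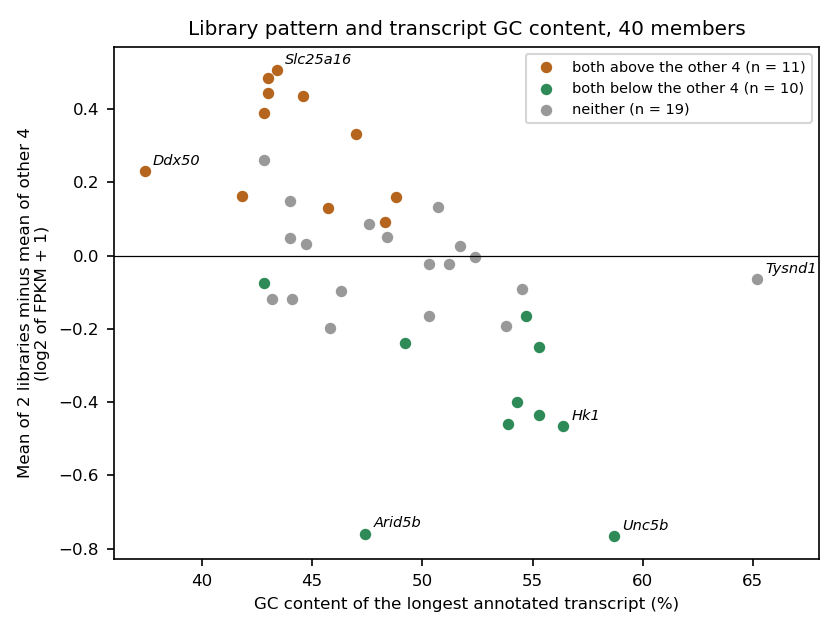
GC content of the longest annotated transcript in percent (x axis) and the mean of the 2 replicate 1 libraries minus the mean of the other 4 on the scale of log2(FPKM + 1) (y axis) for the 40 tested members, coloured by whether both libraries lay above the other 4, both below them, or neither. High members lie at 37.4% to 48.8% GC and most low members above 53%.

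In limma 0 of 40 members had an adjusted p under 0.05, whether the split was a term of the model or the 2 libraries were left out, where 0.0638% and 0.0957% of all genes did. With the split as a term, Hnrnph3 and Rtkn2 had an unadjusted p under 0.05 (adjusted p = 0.678 and adjusted p = 0.699), 2 of 40 where 6.77% of all genes did. Without the 2 libraries there were 3, Hnrnph3, Rtkn2 and Zfp365, where 3.86% of all genes did. Intervals within 1.5-fold were found for 39 of 40 members in both fits, against 96.2% of all genes with the split as a term and 94.8% without the 2 libraries. Both fits were chosen after the data were seen. With a weight estimated for each library, 6 members (Ddx50, Dnajc12, Hnrnph3, Pcbd1, Rtkn2 and Zfp365) had an unadjusted p under 0.05, where 9.83% of all genes did, and 0 had an adjusted p under 0.05, where 0.471% did.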

How the data were processed

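Whole-hippocampus RNA of 3 Tet1Δe4-/- and 3 Tet1+/+ mice was sequenced, on an Illumina instrument, per the labels' protocols. The authors deposited gene-level FPKM values, with 1 column per library. The tools were TopHat2 2.0.9 and Cufflinks 2.1.1 on mm10, per the submitters' processing notes. Which annotation was used, whether strand was read and how multi-mapping reads were treated is not given in the sources used here. Read totals cannot be taken from FPKM, so depth is unknown and no counting interval is given. Groups come from the genotype labels, and replicate numbers follow sample order and pair nothing.

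From these values log2(FPKM + 1) was computed for genes averaging 1 FPKM or more across all 6 libraries. It was fitted with limma 3.58.1 (R 4.3.3) with an intensity trend. A run of the fit on simulated data used independent noise and planted differences larger than that of any tested member. Those data held no split between libraries, so the run does not check the fit for such a split or for small differences. Adjustment was by Benjamini-Hochberg over all tested genes, and intervals are 95%. Tet1 and members under 1 FPKM were read from the same model on all genes above 0. Positions and transcript GC are from GENCODE M21, and promoters from RefSeq on GRCm38.p6. The members and lists were chosen with earlier results of these data known. Values per library are given for Tet1, the 6 nearest tested members on each side, the 10 smallest p-values, the 5 highest levels, the 3 largest SDs within groups and the adjacent copies, with others chosen after their values were seen. Settings also tried were no filter, a pseudocount of 0.1 FPKM, median-of-ratios scaling, quantile normalization, no trend, library weights, leaving out each library, and 2 fits for the library split.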

Additional observations from a re-analysis of the deposited data

How the results depend on the processing

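No member had an adjusted limma p under 0.05 with any alternative run. The number of genes of the whole table with an adjusted p under 0.05 was 4, and became 59 with library weights, 8 with the split as a term and 12 without the 2 libraries that stand apart. Leaving out 1 library at a time gave 0 to 6 such genes: 5 without Tet1-deficient replicate 1, 0 without replicate 2 and 1 without replicate 3, and 6, 1 and 0 without wild-type replicates 1, 2 and 3. Members with an unadjusted p under 0.05 numbered 0, against 1 with no filter on level, 6 with library weights, 2 with the split as a term and 3 without the 2 libraries, and 0 to 1 with 1 library left out (Rtkn2, without Tet1-deficient replicate 1, where 1.39% of all genes had one). The members' median log2 difference was 0.0196 without the 2 libraries and 0.0103 to 0.0215 with 1 library left out. The log2 difference of Tet1 was -0.28 with a pseudocount of 0.1 FPKM, which shrinks low genes less, and -0.20 to -0.098 with 1 library left out. The sign of the difference turned in 29 of 40 members when 1 library was left out. It held in 11: P4ha1, Psap, Pcbd1, Ppa1, Supv3l1, Ddx50, Hnrnph3, Dnajc12, Jmjd1c, Zfp365 and Rtkn2. For Pcbd1 it held only barely, at 6.35e-06 without Tet1-deficient replicate 3. The same count was not made over all tested genes, so it is not a trait shown for the members alone. The causes of the changes between settings were not tested. Depth limits cannot be given without read totals. No paired analysis was possible because the replicate numbers were given in sample order and the labels pair no animals.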
